A study of Mus musculus with 5 samples.

Results

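The MHC class I presentation genes described here are 10 genes whose products form MHC class I molecules, supply and load their peptides or switch these genes on: H2-K1, H2-D1, H2-Q7, B2m, Tap1, Tap2, Tapbp, Psmb8, Psmb9 and Nlrc5. They were chosen by name, and all 10 were found among the 31053 genes of every count matrix. Their levels were compared between cell classes and between tumors given the anti-VEGF-A antibody B20-4.1.1 and tumors given an isotype IgG2a antibody.

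Single-cell RNA was counted in 15 mammary tumors of FVB/N mice carrying the MMTV-PyMT transgene, whose oncogene is expressed from the MMTV promoter in mammary epithelial cells. Isotype mice received mouse IgG2a (clone C1.18.4) and treated mice received B20-4.1.1, both intraperitoneally at 5 mg/kg, starting at 7 weeks of age and continuing for 6 weeks. The 6 isotype tumors were processed as 2 pools and the 9 B20-4.1.1 tumors as 3 pools, each pool holding 3 tumors that were told apart by lipid-anchored barcode oligos. The study also classed B20-4.1.1 tumors as high or low in hypoxia; the labels do not give that class, so the B20-4.1.1 group here may mix both and every treatment value is over the group as a whole. No pool mixed the treatments, so effects of pool and of antibody cannot be told apart, and the tumor was taken as the replicate.

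MHC class I molecules show peptides from inside the cell to CD8 T cells. A heavy chain (H2-K1 and H2-D1 encode the classical chains in these files, H2-Q7 a nonclassical Qa-2 chain) pairs with the invariant light chain B2m. Psmb8 and Psmb9 are immunoproteasome subunits that cut peptides, Tap1 and Tap2 form the transporter that carries peptides into the endoplasmic reticulum, Tapbp (tapasin) holds the empty molecule at that transporter, and Nlrc5 is the transactivator of class I genes. Interferons are the best known inducers of the group, and tumor cells that lose it are poorly seen by CD8 T cells.

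In GRCm38, 8 of the 10 members lie in the MHC on chromosome 17. From its proximal end these are Tapbp at chr17:33915899-33929292 on the plus strand, H2-K1 at chr17:33996017-34000347 on the minus strand, Psmb9 at chr17:34181987-34187764 on the minus strand, Tap1 at chr17:34187553-34197225, Psmb8 at chr17:34197721-34201454 and Tap2 at chr17:34203527-34216321, the last 3 on the plus strand. H2-D1 at chr17:35262730-35267499 and H2-Q7 at chr17:35439155-35443773 follow, also on the plus strand. B2m lies outside the MHC at chr2:122147686-122153083 and Nlrc5 at chr8:94434356-94527272, both on the plus strand. All 10 are annotated as protein-coding genes.

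The promoters below are those of the members that passed the treatment test in epithelial-like cells, with B2m as the shared partner of the heavy chains. Each window runs from 250 bases before to 50 bases after the RefSeq start in GRCm38.p6 (for H2-K1, the first of 2 listed starts) and is read 5′ to 3′ on the gene's strand. Capitals mark matches, on either strand, to GGGATTCCC (a kappa B type element), GAAANNGAA or GAANNGAAA (forms of interferon-stimulated elements) or TTCNNNGAA (a STAT element). The windows are chr17:34000298-34000597 (minus) for H2-K1, chr17:35262844-35263143 (plus) for H2-D1, chr2:122147437-122147736 (plus) for B2m, chr17:34197945-34198244 (plus) for Psmb8 and chr17:34187281-34187580 (minus) for Psmb9.
H2-K1: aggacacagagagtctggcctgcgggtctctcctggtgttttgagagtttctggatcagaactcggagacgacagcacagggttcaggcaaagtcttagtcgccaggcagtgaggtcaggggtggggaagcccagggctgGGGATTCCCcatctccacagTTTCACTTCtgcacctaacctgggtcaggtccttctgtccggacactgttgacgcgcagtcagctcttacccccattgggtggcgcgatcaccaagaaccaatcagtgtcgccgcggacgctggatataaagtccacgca
H2-D1: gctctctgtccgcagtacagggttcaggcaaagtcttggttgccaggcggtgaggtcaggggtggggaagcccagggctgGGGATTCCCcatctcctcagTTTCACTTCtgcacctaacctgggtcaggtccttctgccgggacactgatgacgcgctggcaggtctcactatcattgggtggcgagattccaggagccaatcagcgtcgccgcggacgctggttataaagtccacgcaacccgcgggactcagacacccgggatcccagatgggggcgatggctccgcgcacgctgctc
B2m: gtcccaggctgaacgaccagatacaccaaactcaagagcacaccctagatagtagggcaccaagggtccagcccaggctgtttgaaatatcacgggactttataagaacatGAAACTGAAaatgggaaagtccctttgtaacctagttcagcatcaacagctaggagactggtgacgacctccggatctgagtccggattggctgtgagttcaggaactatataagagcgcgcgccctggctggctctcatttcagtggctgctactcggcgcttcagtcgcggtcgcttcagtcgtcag
Psmb8: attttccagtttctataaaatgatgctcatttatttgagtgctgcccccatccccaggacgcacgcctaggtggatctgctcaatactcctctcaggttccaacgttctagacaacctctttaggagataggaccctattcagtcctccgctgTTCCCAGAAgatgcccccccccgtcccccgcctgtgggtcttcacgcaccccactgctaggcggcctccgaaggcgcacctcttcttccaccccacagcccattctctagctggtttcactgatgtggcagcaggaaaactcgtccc
Psmb9: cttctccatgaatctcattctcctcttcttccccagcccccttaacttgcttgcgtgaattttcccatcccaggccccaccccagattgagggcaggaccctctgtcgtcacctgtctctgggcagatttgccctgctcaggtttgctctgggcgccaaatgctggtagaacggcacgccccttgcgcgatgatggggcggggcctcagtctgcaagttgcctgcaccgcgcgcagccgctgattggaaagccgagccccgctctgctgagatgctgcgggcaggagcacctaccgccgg

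Promoter windows were matched for 8 of the 10 members; Tap2 and Nlrc5 had none. GGGATTCCC was found in the windows of all 3 heavy chains and in none of the other 5, against 0.353% of 32851 mouse promoters of the same length. GAANNGAAA was found next to it in the same 3 windows, against 7.52% of promoters, and GAAANNGAA in that of B2m, against 8.56%. TTCNNNGAA was found in the window of Psmb8, against 8.3%. No marked match to another motif overlapped these, and no motif was found in the windows of Tap1, Tapbp and Psmb9. The Tapbp window, chr17:33919228-33919527, lies inside the gene as annotated above and not at its start. Those of H2-D1 and Psmb8 also lie inside the annotated genes, nearer to their starts. Sequence at the annotated starts of these genes was not searched. Tap1 and Psmb9 are transcribed away from each other from a shared stretch, and their windows overlap by 275 of 300 bases. In a global alignment the heavy-chain windows shared 218 (H2-K1 and H2-D1), 227 (H2-K1 and H2-Q7) and 220 (H2-D1 and H2-Q7) identical bases of 300. Their motif matches are therefore not 3 independent ones to set against the share of all promoters. These are letters in the C57BL/6 reference and carry no measurement of binding.

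Of 30340 deposited cells, 19533 passed the filters, with 511 to 2341 cells and 4014509 to 23726246 gene UMIs per tumor. A UMI is 1 counted RNA molecule. Cells were gated on marker genes that include none of the 10 members, which gave 13617 epithelial-like, 2568 T-like and 1410 macrophage-like cells, 6 smaller classes of 19 to 180 cells, and 1501 cells left ungated. Levels are UMIs per 10000 gene UMIs of the class in a tumor, so each is a share of the RNA of that class, not an amount per cell, and fewer molecules of a gene cannot be told apart from more of the others. Because 3′ ends were counted, levels do not scale with gene length. T-like cells were 61.5% to 72.4% of the gated cells in 3 B20-4.1.1 tumors (pool 1 tumor 3, pool 2 tumors 1 and 3), which left 77 epithelial-like cells in the smallest tumor, against 3.06% to 11.6% T-like cells in the isotype tumors. No cell barcode was shared between tumors of a pool.

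Heavy-chain counts carry 2 limits. FVB/N mice carry another MHC haplotype than the C57BL/6 reference, and the effect of this on the counts of the heavy chains was not tested. The primers of the paper name K, D and L chains, and the members include no L chain. Whether reads of an L chain were counted under H2-D1 was not tested. In the last 500 bases of the transcripts, where 3′ reads fall, 2 of 451 overlapping 50-base stretches of H2-K1 also occur in H2-D1 (0.444%), 28 of those of H2-Q7 occur in H2-Q5 or H2-Q10 (6.21%), and 43 of those of H2-D1 occur in 80 other genes (9.53%). The other 7 members had no shared stretch there.

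The members formed an order across the 3 large classes in the same tumors: T-like cells were highest by mean level for all 10 members, and macrophage-like cells lay between them and epithelial-like cells for 9 of 10, all but Tap2. T-like cells were above epithelial-like cells for 10 of 10 members in edgeR's quasi-likelihood test with a term for the tumor and Benjamini-Hochberg adjustment over all genes; 35.4% of all genes tested were called higher. The median log2 difference of the members was 2.03, against -0.069 over all genes. Macrophage-like cells were above epithelial-like cells for 8 of 9 members tested, with 33.3% of all genes called higher. T-like cells were above macrophage-like cells for 9 of 9 members tested, with 35.7% of all genes called higher. Nlrc5 was too low to be tested in the comparisons with macrophage-like cells.

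**Figure D1:**
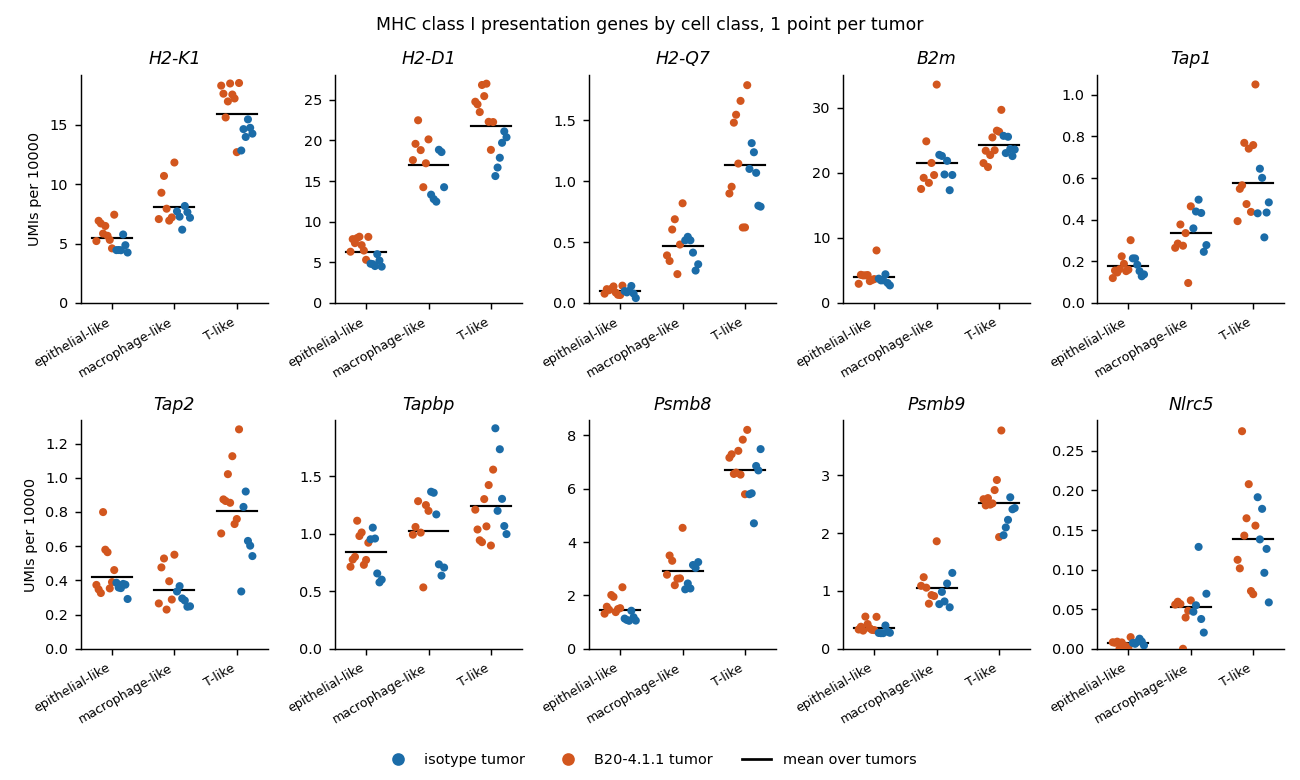
Level of each member in UMIs per 10000 gene UMIs (vertical axes, from 0) in epithelial-like, macrophage-like and T-like cells, 1 point per tumor with at least 20 cells of the class, colored by treatment, with a line at the mean over tumors. B2m rises from a mean of 3.97 in epithelial-like cells to 21.5 (macrophage-like) and 24.3 (T-like), while the points of Tap2 overlap between epithelial-like and macrophage-like cells.

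Among the heavy chains, H2-D1 had more UMIs than H2-K1 in each class. Its level was 6.30 ± 1.39 UMIs per 10000 in epithelial-like cells (SD, n = 15 tumors), 16.9 ± 3.20 in macrophage-like cells (n = 13) and 21.8 ± 3.59 in T-like cells (n = 15). The lowest macrophage-like value, 12.5, lay above the highest epithelial-like value, 8.15. H2-K1 followed with 5.49 ± 1.02, 8.08 ± 1.60 and 15.9 ± 2.02, so the step from macrophage-like to T-like cells was larger for H2-K1 (a log2 difference of 0.93, SE 0.077) than for H2-D1 (0.28, SE 0.074). The H2-D1 step was not called without the tumors of isotype pool 1 (0.21, adjusted p 0.0508). H2-Q7 was scarce in epithelial-like cells (0.0966 ± 0.0296) and rose to 0.472 ± 0.168 and 1.14 ± 0.367, a T-like to epithelial-like difference of 3.55 (SE 0.125, adjusted p 1.7e-17).

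H2-K1 and H2-D1 did not keep a fixed proportion across classes. The H2-K1 count over the H2-D1 count of the same tumor was 0.881 ± 0.0723 in epithelial-like cells (n = 15, from 0.730 to 0.977), 0.738 ± 0.0720 in T-like cells (n = 15, from 0.633 to 0.878) and 0.481 ± 0.0646 in macrophage-like cells (n = 13, from 0.402 to 0.588). The macrophage-like tumors overlapped with neither of the other classes, while the epithelial-like and T-like ranges overlapped. These ratios are given as a description, with no test. They are ratios of counts under these gene names, since the H2-D1 count may include reads of an L chain.

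B2m, the light chain, showed a step between epithelial-like cells and the leukocyte classes that was larger than that of the classical heavy chains. Its level was 3.97 ± 1.26 in epithelial-like cells, where it was below both H2-K1 and H2-D1, and in the leukocyte classes it was above both, at 21.5 ± 4.26 (macrophage-like) and 24.3 ± 2.26 (T-like). The log2 difference to epithelial-like cells was 2.47 (SE 0.065) for macrophage-like and 2.67 (SE 0.085) for T-like cells. T-like and macrophage-like cells differed in B2m by 0.17 (SE 0.069, adjusted p 0.0372), a call that held in 1 of 10 alternative settings.

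The immunoproteasome subunits followed the same order. Psmb8 was at 1.46 ± 0.375 UMIs per 10000 in epithelial-like, at 2.93 ± 0.636 in macrophage-like and at 6.72 ± 0.916 in T-like cells. Psmb9 was at 0.357 ± 0.0934, 1.05 ± 0.305 and 2.52 ± 0.443 in the same classes. The T-like to epithelial-like differences were 2.24 (SE 0.077) for Psmb8 and 2.86 (SE 0.076) for Psmb9.

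Each immunoproteasome subunit replaces a constitutive one in the assembled proteasome: Psmb8 replaces Psmb5, Psmb9 replaces Psmb6 and Psmb10 replaces Psmb7. In isotype tumors the Psmb8 count over the Psmb5 count was 0.598 ± 0.115 in epithelial-like cells, 1.80 ± 0.340 in macrophage-like cells and 3.67 ± 0.746 in T-like cells (n = 6 each). The Psmb9 over Psmb6 ratio was 0.129 ± 0.0180, 0.494 ± 0.118 and 1.67 ± 0.369, and the Psmb10 over Psmb7 ratio was 0.424 ± 0.0477, 1.03 ± 0.195 and 1.72 ± 0.193. In B20-4.1.1 tumors the epithelial-like ratios were 0.734 ± 0.170, 0.126 ± 0.0328 and 0.510 ± 0.108 (n = 9), each overlapping with the isotype tumors. Psmb6, the denominator of the Psmb9 ratio, was itself higher in epithelial-like cells of B20-4.1.1 tumors, as given with the pathway genes. In the same order, the B20-4.1.1 ratios were 2.015 ± 0.517, 0.547 ± 0.197 and 1.10 ± 0.184 in macrophage-like cells (n = 7). In T-like cells (n = 9) they were 4.29 ± 0.663, 1.75 ± 0.355 and 2.54 ± 0.619. Each of these also overlapped with the isotype tumors, and no ratio was tested.

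**Figure D2:**
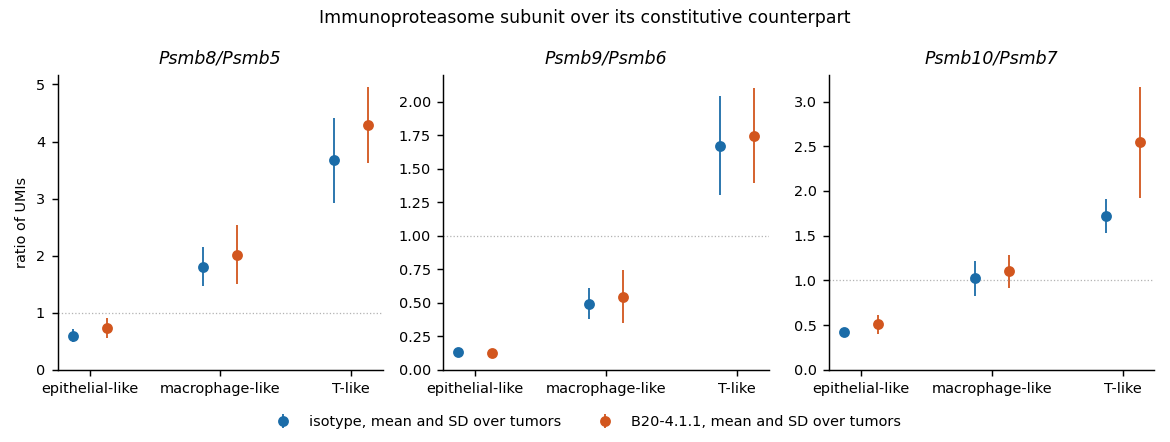
Ratio of the UMIs of an immunoproteasome subunit to those of the constitutive subunit it replaces (vertical axes, from 0, dotted line at a ratio of 1) by cell class and treatment, as mean and SD over tumors. Epithelial-like means lie below 1 for all 3 pairs and T-like means above 1.

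The transporter subunits and tapasin each differed between classes in another way. Tap1 was at 0.176 ± 0.0470 in epithelial-like, at 0.335 ± 0.110 in macrophage-like and at 0.577 ± 0.191 in T-like cells. Tap2 was at 0.422 ± 0.132, 0.346 ± 0.110 and 0.803 ± 0.237, and was the member for which macrophage-like cells were not above epithelial-like cells (log2 difference -0.15, SE 0.103, adjusted p 0.196). Tapbp was at 0.840 ± 0.169, 1.02 ± 0.285 and 1.24 ± 0.306, and its T-like to epithelial-like difference of 0.57 (SE 0.081) was the smallest of the 10 members. Tapbp differed between T-like and macrophage-like cells by 0.30 (SE 0.113, adjusted p 0.0209), which was called in 5 of 10 alternative settings, and its macrophage-like to epithelial-like call was lost when cells were thinned to 2500 UMIs (0.14, adjusted p 0.261). Tap1 was not called between T-like and macrophage-like cells in isotype tumors alone (0.29, adjusted p 0.190).

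Nlrc5 was the rarest member and had the largest T-like to epithelial-like difference, 4.11 (SE 0.256, adjusted p 7.4e-13). Its level was 0.00672 ± 0.00427 in epithelial-like cells, from 0 to 0.0147, and 0.139 ± 0.0587 in T-like cells, from 0.0586 to 0.275. The tumors of the classes did not overlap. The epithelial-like level rests on 100 UMIs in 13617 cells.

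The share of cells with at least 1 UMI depended on depth, since the median cell held 8768 UMIs among epithelial-like, 6327.5 among macrophage-like and 4049 among T-like cells. Without correction, H2-K1 was detected in 91.3%, 94.4% and 99.3% of cells of these classes (means over tumors). After each cell was thinned to 2500 UMIs the shares were 63.9%, 79.4% and 96.5%. B2m after thinning was detected in 48.2%, 97.2% and 98.7% of cells, and Psmb9 in 7.73%, 23.3% and 43.1%. Nlrc5 after thinning was detected in 0.175%, 1.77% and 3.61% of cells, which is near the level at which a single UMI decides.

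RNA from other cells in the suspension was measured with genes outside the gate. In epithelial-like cells, 6 leukocyte genes summed to 0.325 ± 0.128 UMIs per 10000 in isotype and 0.496 ± 0.103 in B20-4.1.1 tumors, against 67.7 ± 5.23 in isotype T-like cells. In the other direction, Csn3, a milk casein gene, was at 4.59 ± 0.846 in T-like and 4.84 ± 2.12 in macrophage-like cells of isotype tumors, against 177 ± 20.2 in epithelial-like cells. The list of 5 epithelial genes that holds it summed to 19.2 ± 5.38, 19.7 ± 3.38 and 548 ± 115, but it includes Spp1 (7.72, 8.19 and 79.5), which macrophages also make, so the sum is no measure of epithelial RNA in that class. The part of this RNA in the class differences was not tested.

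In epithelial-like cells, 4 of the 9 members tested were higher in B20-4.1.1 than in isotype tumors when tumors were the replicates: H2-D1, Psmb8, Psmb9 and H2-K1. All 9 had a positive difference, with a median log2 fold change of 0.39 against -0.0056 over all genes, and 7.41% of all genes tested were called higher. With the pool kept as a random effect none of the 9 was called, and the values of both groups overlapped for each of the 10 members. The comparison addresses whether anti-VEGF-A treatment goes with a change in antigen presentation in each class.

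H2-D1 had the smallest adjusted p of the members. Its level ran from 4.47 through a median of 4.80 to 6.00 UMIs per 10000 in the 6 isotype tumors and from 5.31 through 7.36 to 8.15 in the 9 B20-4.1.1 tumors. All 9 B20-4.1.1 tumors were above the isotype mean of 4.97, and 8 of 9 were above the highest isotype tumor. The log2 fold change was 0.60 (SE 0.112, adjusted p 0.00351, edgeR).

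H2-K1 ran from 4.25 through 4.45 to 5.76 in isotype and from 4.596 through 5.84 to 7.43 in B20-4.1.1 tumors. Here 8 of 9 B20-4.1.1 tumors exceeded the isotype mean of 4.70 and 5 exceeded the highest isotype tumor. The log2 fold change was 0.42 (SE 0.118, adjusted p 0.0251).

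Psmb8 ran from 1.05 through 1.11 to 1.43 in isotype and from 1.32 through 1.52 to 2.31 in B20-4.1.1 tumors, with 9 of 9 above the isotype mean of 1.15 and 7 above the highest isotype tumor (log2 fold change 0.59, SE 0.131, adjusted p 0.00825). Psmb9, the other immunoproteasome subunit among the members, ran from 0.270 through 0.275 to 0.403 and from 0.314 through 0.354 to 0.556 (0.45, SE 0.148, adjusted p 0.0486). For Psmb9 9 of 9 tumors were above the isotype mean of 0.298 but only 3 were above the highest isotype tumor, and its call was lost with scaling by total UMIs (0.38, adjusted p 0.0681).

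The other 5 members tested were not called. B2m was at 3.48 ± 0.586 in isotype and 4.302 ± 1.5 in B20-4.1.1 tumors (log2 fold change 0.38, SE 0.179, adjusted p 0.153). One B20-4.1.1 tumor (pool 3 tumor 3) stood at 8.08, while the other 8 lay between 2.95 and 4.33. Tap2 was at 0.357 ± 0.0346 and 0.466 ± 0.156 (0.39, SE 0.150, adjusted p 0.0844). Tapbp was at 0.799 ± 0.211 and 0.868 ± 0.142 (0.20, adjusted p 0.237), Tap1 at 0.172 ± 0.0378 and 0.179 ± 0.0544 (0.17, adjusted p 0.512) and H2-Q7 at 0.0903 ± 0.0324 and 0.101 ± 0.0287 (0.23, adjusted p 0.508). Nlrc5, at 0.00807 ± 0.00289 and 0.00582 ± 0.00494, was below the count filter.

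**Figure D3:**
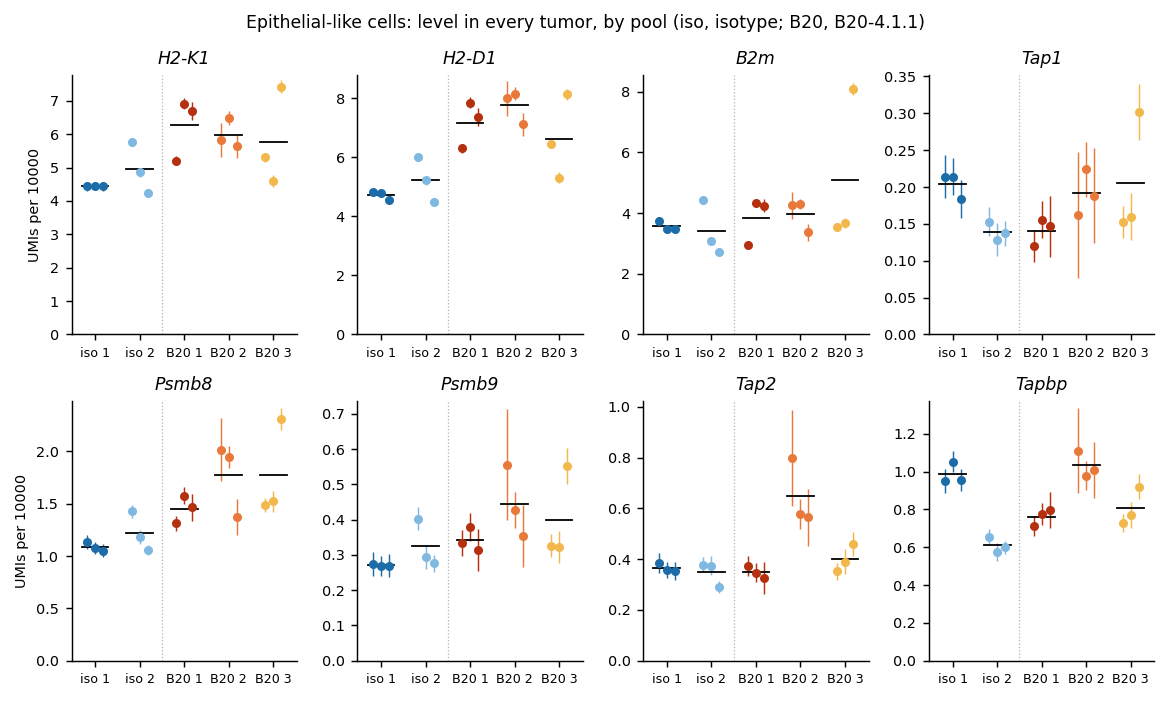
Level of H2-K1, H2-D1, B2m, Tap1, Psmb8, Psmb9, Tap2 and Tapbp in epithelial-like cells in UMIs per 10000 gene UMIs (vertical axes), 1 point per tumor. Tumors are grouped by the 5 pools, with a line at each pool mean. Bars give the 95% counting interval (normal approximation), which covers counting error only. The tumors of isotype pool 1 lie close together, for H2-K1 between 4.44 and 4.45, and B20-4.1.1 pool 3 tumor 3 lies apart for B2m.

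The pools set how far these calls reach. Between the 2 isotype pools, which had the same treatment, 56.1% of 12559 genes were called in epithelial-like cells. Of the members, 6 were among them: pool 2 was higher for H2-K1 (0.43), H2-D1 (0.42), Psmb8 (0.44) and Psmb9 (0.53) and lower for Tapbp (-0.42) and Tap1 (-0.27), on the log2 scale after TMM normalization. When libraries were scaled by total UMIs instead, the 4 higher members were no longer called and Tapbp (-0.69) and Tap1 (-0.54) were, with the median of all genes at -0.28. On the TMM scale the pool differences of these 4 lay beside treatment differences of 0.42, 0.60, 0.59 and 0.45.

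In epithelial-like cells the 3 tumors of isotype pool 1 were closely alike. Their H2-K1 levels, 4.439, 4.448 and 4.454, had an SD of 0.00755, below the mean counting SD of 0.0642. Over all genes, the mean chi-square of a pair of tumors per gene (1 where counting error alone separates them) was 2.82 to 3.81 in epithelial-like cells of this pool against 4.02 to 39 in the other pools. In T-like cells isotype pool 2 was the more alike, with 1.51 to 1.75 against 1.80 to 2.36 in isotype pool 1. Sums over unlike cells exceed counting error even within 1 tumor, so these values do not show that the oligos separated the tumors, which was not tested; they were kept as 3 samples because the labels name 3 mice. Counted as 1 sample, a setting chosen after seeing the data, the pool left 1 of the 4 calls, H2-D1. H2-K1 then had 0.33 (adjusted p 0.180), Psmb8 0.51 (adjusted p 0.0738) and Psmb9 0.35 (adjusted p 0.261).

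Without isotype pool 1 none of the 4 remained: H2-D1 had 0.42 (adjusted p 0.0654), H2-K1 0.25 (adjusted p 0.299), Psmb8 0.41 (adjusted p 0.141) and Psmb9 0.23 (adjusted p 0.470), and Tapbp was called instead (0.45, adjusted p 0.0396). With the pool as a random effect in limma-voom the fold changes stayed at 0.60, 0.42, 0.59 and 0.46 for H2-D1, H2-K1, Psmb8 and Psmb9, with adjusted p of 0.130, 0.281, 0.171 and 0.331. The within-pool correlation in that fit was 0.535. The 4 members thus passed with tumors as replicates and did not pass when the spread between pools entered the fit.

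Normalization and the other cells of the tumor moved with the comparison. Scaling by total UMIs in place of TMM shifted the median of all genes to -0.091 and the calls from 913 higher and 862 lower to 703 higher of 1915, and left H2-D1 (0.53, adjusted p 0.00421), Psmb8 (0.53, adjusted p 0.0108) and H2-K1 (0.36, adjusted p 0.0295) called. The leukocyte genes in epithelial-like cells summed to 0.369 to 0.629 in B20-4.1.1 and 0.212 to 0.556 in isotype tumors; the part of this RNA in the calls was not tested. Those group means, 0.325 and 0.496, stand beside H2-D1 means of 4.97 and 7.18. Without the 3 tumors rich in T-like cells, H2-D1 and Psmb8 were called, while H2-K1 (0.43, adjusted p 0.0574) and Psmb9 (0.47, adjusted p 0.0711) were not, with fold changes no smaller than over all tumors.

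In macrophage-like cells 0 of 9 members were called, with 6 isotype and 7 B20-4.1.1 tumors; 0.0289% of all genes tested were called higher. Of the 9, 8 had a positive difference, 3 had an unadjusted p under 0.05 by edgeR, as did 719 of 6910 genes, and DESeq2 called none. H2-D1 ran from 12.5 through 13.8 to 18.8 in isotype and from 14.2 through 18.8 to 22.5 in B20-4.1.1 tumors (log2 fold change 0.38, SE 0.147, adjusted p 0.366). Tap2 had the largest fold change (0.53, SE 0.1997, adjusted p 0.339), at 0.295 ± 0.0479 and 0.390 ± 0.132. H2-K1 differed by 0.32 (SE 0.147, adjusted p 0.459), and Tap1 had the only negative value (-0.16, SE 0.216, adjusted p 0.828). Between the isotype pools 15.6% of genes were called in this class, H2-D1 (0.54), Psmb8 (0.57) and Tapbp (-0.78) among them.

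In T-like cells 0 of 9 members were called by edgeR, where 0.0% of 5791 genes tested were called higher and none lower. Again 8 of 9 differences were positive, and 6 members had an unadjusted p under 0.05, as did 923 genes. DESeq2 called 63 genes, among them H2-K1 and H2-D1 (adjusted p 0.00594 each). H2-D1 ran from 15.6 through 18.8 to 21.1 in isotype and from 18.8 through 24.4 to 27.0 in B20-4.1.1 tumors, with 8 of 9 above the highest isotype tumor (0.50, SE 0.127, adjusted p 0.135 by edgeR). H2-K1 ran from 12.8 through 14.4 to 15.5 and from 12.7 through 17.5 to 18.5, also with 8 of 9 above the highest isotype tumor (0.38, SE 0.107, adjusted p 0.150). Tap2 had the largest fold change (0.66, SE 0.195, adjusted p 0.153) and Tapbp the only negative one (-0.095, SE 0.155, adjusted p 0.812). Scaling by total UMIs moved the median of all genes from 0.0057 to -0.14 in this class.

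The makeup of the T-like class also differed between the groups, by shares of cells pooled over tumors and without a test. Cells with Cd4 but no Cd8 UMIs were 25.4% of T-like cells in B20-4.1.1 and 6.75% in isotype tumors, and cells with Cd8 but no Cd4 UMIs 40.9% and 44.8%. The 3 tumors rich in T-like cells held 656, 339 and 574 of the 1990 T-like cells of B20-4.1.1 tumors, so they weigh most in these shares. At least 20 cells with Cd4 but no Cd8 UMIs were found in 3 B20-4.1.1 and 0 isotype tumors. Among the CD8 cells alone (5 isotype and 8 B20-4.1.1 tumors) 0 members were called. Between the isotype pools 11.4% of genes were called in T-like cells, H2-D1 (0.37) and Psmb8 (0.44) among them.

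**Figure D4:**
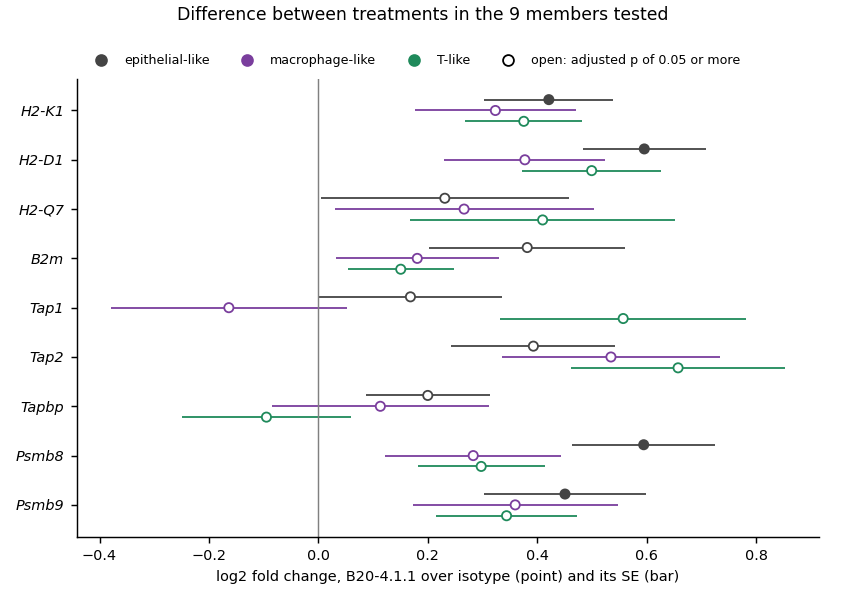
Log2 fold change of B20-4.1.1 over isotype for each member tested (all but Nlrc5) in epithelial-like, macrophage-like and T-like cells. Bars are 1 SE from edgeR, and points are filled where the adjusted p is under 0.05. H2-D1 lies at 0.60, 0.38 and 0.50 in the 3 classes, and the filled points are the 4 epithelial-like calls.

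The treatment difference was not shown to vary between classes. For macrophage-like against epithelial-like cells 0 of 9 members had a called interaction (0.0659% of 10622 genes were called in either direction), and the largest member value was that of Tap1 (-0.34, SE 0.202, adjusted p 0.644). At an unadjusted p under 0.05 there were 943 of 10622 genes and 1 member, Psmb8 (-0.31, SE 0.115). For T-like against epithelial-like cells 0 of 10 were called (0.0629% of 11129 genes), and no member had an unadjusted p under 0.05, as 1412 genes had. H2-D1 differed in its treatment effect by -0.18 (SE 0.111) and -0.062 (SE 0.138) and H2-K1 by -0.11 (SE 0.111) and -0.0091 (SE 0.131).

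Of 32 other genes of the class I pathway, chosen by role, 31 were tested in epithelial-like cells, and 6 were higher and 1 lower in B20-4.1.1 tumors, with a median fold change of 0.12. Over all 12317 genes tested 7.41% were called higher and 862 genes lower. These calls rest on tumors as replicates: with the pool as a random effect 42 genes were called in all, and with sums per pool 0. Among 7 other heavy chains tested, H2-T22 (0.43, SE 0.107, adjusted p 0.0148) and H2-T23 (0.29, SE 0.089, adjusted p 0.0383), both nonclassical chains, were higher. Among 7 peptide supply genes, Psme1 (0.32, SE 0.085, adjusted p 0.0203) and Psme2 (0.67, SE 0.169, adjusted p 0.0163), the subunits of the PA28 proteasome activator, and Psmb6 (0.51, SE 0.136, adjusted p 0.0201), a constitutive proteasome subunit, were higher. None of the 4 loading genes was called. Among 13 regulators, Ifngr1, a chain of the interferon-gamma receptor, was higher (0.48, SE 0.093, adjusted p 0.00413) and Rfx5, a subunit of the RFX complex that binds MHC promoters, was lower (-0.53, SE 0.164, adjusted p 0.0381). Of the pathway genes, 0 of 25 tested in macrophage-like cells and 0 of 24 in T-like cells were called by edgeR, with medians of 0.17 and 0.21. An unadjusted p under 0.05 was reached by 4 and 11 of them.

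Genes whose epithelial-like level was among the most like the standardized mean of the members over the 15 tumors were H2-T22 (Pearson r 0.91), Irf7 (0.88), Irgm1 (0.87), Igtp (0.87), Gsr (0.87), Ifi35 (0.86) and Phf11d (0.85), among 12317 genes. With each treatment group centered on its own mean, r ranged from 0.71 to 0.82 for these 7. Irf7, Irgm1, Igtp and Ifi35 are known interferon-inducible genes. The tumors share pools and class makeup, so these values describe likeness over these libraries.

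Within epithelial-like cells the count of the members varied from cell to cell, and the part of counting error in this was not tested. At 2500 UMIs per cell, the median cell held 3 UMIs of the 10 members together in each isotype tumor and 3 to 4 in each B20-4.1.1 tumor. Cells with 0 UMIs of any member were 5.97% (mean of 6 isotype tumors, 5.16% to 6.96%) and 3.63% (mean of 9 B20-4.1.1 tumors, 1.30% to 5.31%). A T-like cell at the same depth held a median of 16.5 UMIs (mean of the isotype tumors) or 19.3 UMIs (mean of the B20-4.1.1 tumors), and no T-like cell was at 0.

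The 6 smaller classes had too few tumors for a test, and their cells were summed over all tumors, with exact Poisson 95% intervals that cover counting error only. Dendritic-like cells (27 cells, 20 of which fell among macrophages by clustering) had the highest pooled level of all 10 members, with H2-D1 at 28.9 (26.9 to 31.0), B2m at 25.9 (23.97 to 27.9), Psmb8 at 9.37 (8.22 to 10.6), Psmb9 at 6.38 (5.44 to 7.43) and Tap1 at 1.28 (0.883 to 1.80). NK-like cells held H2-K1 at 10.5 (8.85 to 12.4) in isotype tumors (24 cells) and at 22.9 (20.4 to 25.6) in B20-4.1.1 tumors (29 cells), against 14.6 and 17.0 in T-like cells of the same groups. In the same NK-like cells H2-D1 was at 16.83 and 33.22, B2m at 22.17 and 22.55 and Tapbp at 1.052 and 0.8324. No tumor held more than 6 NK-like cells, and these differences between groups were not tested. B-like cells, 175 of 180 from B20-4.1.1 tumors, held H2-K1 at 13.6 (12.8 to 14.6), B2m at 17.4 (16.4 to 18.4) and Tap2 at 0.462 (0.312 to 0.659), against 16.4, 23.2 and 0.880 in T-like cells.

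Neutrophil-like cells (97 cells) departed from the other leukocytes. H2-K1 was at 2.02 (1.59 to 2.54), below the epithelial-like level of 5.26. H2-D1, at 12.6 (11.5 to 13.8), was also the lowest of the leukocyte classes but lay above the epithelial-like level of 5.86. The pooled H2-K1 over H2-D1 ratio was 0.160, against 0.496 in macrophage-like and 0.643 in dendritic-like cells. Psmb8 was at 0.956 (0.666 to 1.33), also low for a leukocyte class. Nlrc5 had 0 UMIs in these cells, which allows up to 0.101 per 10000.

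Of the stromal classes, endothelial-like cells (19 cells) held H2-D1 at 19.8 (17.2 to 22.6) and H2-K1 at 6.32 (4.93 to 7.98), a ratio of 0.320. Fibroblast-like cells (61 cells, 51 of them from B20-4.1.1 tumors) held H2-D1 at 7.71 (7.03 to 8.44) and H2-K1 at 3.42 (2.97 to 3.91), a ratio of 0.443. Epithelial-like cells had the highest H2-K1 to H2-D1 ratio of the 9 classes, 0.898.

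**Figure D5:**
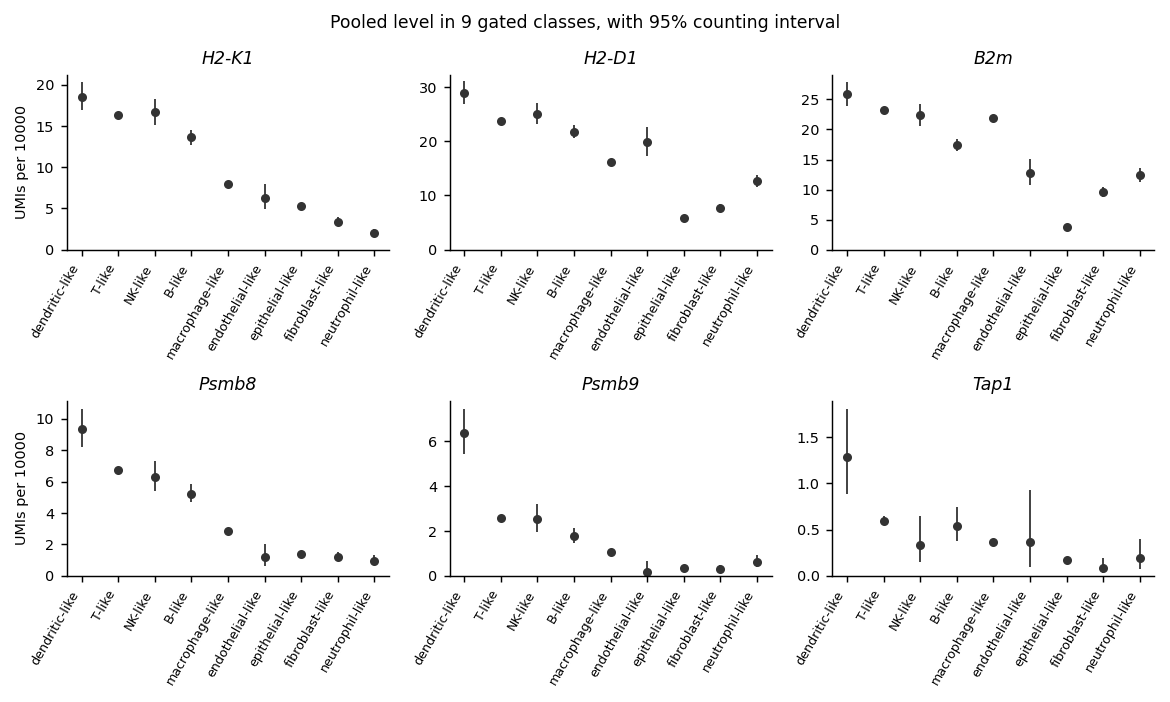
Pooled level of H2-K1, H2-D1, B2m, Psmb8, Psmb9 and Tap1 in 9 cell classes (UMIs per 10000 gene UMIs, linear axes, all tumors summed). Bars are exact Poisson 95% intervals, which cover counting error only. The points of dendritic-like cells lie highest for each of these members, and neutrophil-like cells lie below epithelial-like cells for H2-K1 (2.02) and above them for H2-D1 (12.6).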

How the data were processed

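Live-sorted cells of each tumor were labelled with multiplexing oligos, pooled by 3 and sequenced as 10x Chromium 3′ v3.1 libraries. Per the file headers and the submitters' processing notes, the authors counted UMIs with Cell Ranger 6.1.2 on mm10 and used Seurat 4.3.0; the deposited values are raw UMI counts per gene and cell, 1 matrix per tumor. How the authors assigned cells to tumors beyond the oligos is not given in the sources used here.

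Cells with 2500 to 27500 UMIs and at most 20% mitochondrial UMIs were kept. A cell joined the class with the highest share of its markers detected if at least 3 markers had a UMI and no other class reached over 0.5 of that share; cells with markers of 2 classes, possible doublets, thus stayed ungated, and no doublet caller was run. Counts were summed per tumor and class (at least 20 cells). edgeR 4.0.16 (R 4.3.3) fitted all genes with TMM, its default expression filter and two-sided quasi-likelihood tests, Benjamini-Hochberg adjusted over all genes tested (threshold 0.05); class contrasts and interactions carried a tumor term. SE is the fold change over the square root of F. DESeq2 1.42.0, limma 3.58.1, clusters from scanpy 1.11.5 and other settings served as alternatives. Scripts were tested on simulated data. Promoters came from the RefSeq table of GRCm38.p6 and gene positions from GENCODE on GRCm38. The 10 members and the lists were chosen with earlier results of these data known. Named beside the members are pathway genes passing the test and the 8 genes most correlated with the members' mean, 1 of which is not reported here. Scaling by total UMIs, counting isotype pool 1 as 1 sample and leaving out single tumors were added after seeing the data. Precision is limited by depth, tumors and pools: 2 isotype and 3 B20-4.1.1.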

Additional observations from a re-analysis of the deposited data

Results flagged for a closer look

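In 8 of 60 groups of 4 to 10 tumors, 1 tumor stood apart from the others by Dixon's test; chance alone flags about 1 in 20 groups. In epithelial-like cells of B20-4.1.1 tumors, pool 3 tumor 3 was highest for B2m at 8.083 UMIs per 10000 (others 2.95 to 4.33). In epithelial-like cells of isotype tumors, pool 2 tumor 3 was lowest for Tap2 at 0.2911 (others 0.355 to 0.386), and pool 2 tumor 1 was highest for Psmb8 at 1.426 (others 1.05 to 1.18) and for Psmb9 at 0.4026 (others 0.270 to 0.296). In macrophage-like cells of B20-4.1.1 tumors, pool 3 tumor 1 was lowest for Tapbp at 0.5331 (others 0.991 to 1.28), pool 3 tumor 3 was highest for Psmb9 at 1.858 (others 0.779 to 1.24), and pool 2 tumor 3 had 0 UMIs of Nlrc5 (others 0.0395 to 0.0611). In T-like cells, B20-4.1.1 pool 3 tumor 2 was lowest for H2-K1 at 12.69 (others 15.6 to 18.5). Without B20-4.1.1 pool 3 tumor 3 the epithelial-like calls fell from 4 members to 3, as Psmb9 was lost (0.36, adjusted p 0.0860). Without isotype pool 2 tumor 1 they numbered 4.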

How the results depend on the processing

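No paired analysis was possible because no pool holds both treatments and the pool numbers of the groups name different pools. Values are counts of members called or log2 differences; leaving out a replicate means leaving out a pool or a single tumor. Of 4 epithelial-like treatment calls, 0 were made with the pool as a random effect and 0 with sums per pool, where 0 of all genes were called, 2 after thinning, 2 without the T-rich tumors, 1 with isotype pool 1 counted as 1 sample, 3 with total UMI scaling, 5 with DESeq2, and 1 to 4 with a pool or tumor left out (1 without isotype pool 1, where Tapbp was called; 2 without B20-4.1.1 pool 2). Over all genes, 1021 of 10173 were called after thinning, 1263 of 12117 without the T-rich tumors and 338 of 12458 with isotype pool 1 counted as 1 sample. Without isotype pool 1 they were 429 of 12415, and without B20-4.1.1 pool 2 1046 of 12102. Over 20 alternative settings H2-D1 was called in 17, Psmb8 in 16, H2-K1 in 12 and Psmb9 in 8. Without B20-4.1.1 pool 1, H2-K1 was lost (edgeR adjusted p 0.0691) and Tap2 was called (edgeR adjusted p 0.0247). The 0 macrophage-like calls became 0 to 1 with a pool left out (H2-D1 without isotype pool 2, where 585 of 7741 genes were called). The 0 T-like calls became 2 with DESeq2, 1 with at least 50 cells (H2-D1), and 0 to 2 with a pool left out (2 without B20-4.1.1 pool 3). Over all genes tested in T-like cells, these 3 settings called 63 of 5791, 235 of 6697 and, without B20-4.1.1 pool 3, 300 of 6431. Class contrasts kept 6 to 10 calls, and interactions had 0 throughout. Signs that turned belonged to values that were not called in the main setting. For treatment, Tapbp ranged from -0.018 to 0.45 in epithelial-like cells with a pool left out, from -0.20 to 0.60 in macrophage-like cells (-0.19 thinned) and from -0.32 to 0.13 in T-like cells (0.17 in CD8 cells, 0.036 with isotype pool 1 as 1 sample). Tap1 ranged from -0.33 to 0.043 in macrophage-like cells (0.056 with classes from clusters). For the macrophage-like interaction with a pool left out, H2-Q7 ranged from -0.25 to 0.14 (0.10 without B20-4.1.1 pool 1) and Tapbp from -0.11 to 0.13 (0.074 without B20-4.1.1 pool 3, 0.0072 without B20-4.1.1 pool 2, 0.0016 with RLE). For the T-like interaction, H2-K1 ranged from -0.12 to 0.050 (0.023 without B20-4.1.1 pool 1), H2-D1 from -0.16 to 0.017, H2-Q7 from -0.14 to 0.094 (-0.11 without B20-4.1.1 pool 2, -0.0307 with RLE, -0.099 thinned) and Nlrc5 from -0.051 to 1.01. The causes were not tested. CD4 cells alone could not be fitted, since 0 isotype tumors held 20 of them. Nlrc5 is limited by depth in epithelial-like and macrophage-like cells.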
